A study of Mus musculus with 17 samples.

Results

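Glycolysis turns glucose into pyruvate and lactate, and hypoxia-inducible factors (HIFs) are the transcription factors best known for raising its genes when oxygen is low. The gene set described here held 32 mouse genes of glucose and lactate transport, hexokinases, upper and lower glycolytic enzymes, PFKFB enzymes, pyruvate dehydrogenase kinases and Hif1a. A gene entered through the probe sets annotated to its symbol alone, and the probe set with the highest mean log2 intensity over all arrays stood for it. This gave values for 29 of the 32 genes, all 29 above the detection floor on at least 1 array, among 16785 genes tested in all. The levels of Gpi1, Eno1 and Pfkfb1 were not analysed here, and these genes enter only the promoter counts.

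The samples were hematopoietic stem cells (HSCs) from mice, sorted by surface markers and measured on 17 Affymetrix arrays. The adult gate took lin- Sca-1+ c-Kit+ cells that carried CD150 but not CD48, and the fetal gate asked in addition for low Mac-1. The 5 groups were HSCs from E15.5 fetal liver (n = 3), control HSCs at day 7 (n = 3) and day 21 (n = 4) after pIpC, and C/EBPa knockout (KO) HSCs at day 7 (n = 3) and day 21 (n = 4) after pIpC. pIpC is a double-stranded RNA analogue that induces an interferon response and is often used to switch on an interferon-inducible Cre recombinase. The labels name no Cre driver, no age of the adult mice and no source organ for the adult cells, and give the fetal samples no genotype. The titles name a C/EBPa KO, whereas their genotype field and the series' design give a PU.1 knock-in (PU.1ki/ki), with wild type for the controls. Nothing in the labels tells whether replicates were separate animals, so the p-values measure only the spread between these samples.

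HSCs in adult marrow are largely quiescent, live at low oxygen and are known for a glycolytic metabolism. HIF-1, a dimer of HIF-1α and ARNT, raises glucose uptake, nearly every glycolytic step, lactate export and the pyruvate dehydrogenase kinases. These kinases shut off pyruvate dehydrogenase and so keep pyruvate out of the mitochondria. HIF-1α is controlled mainly by oxygen-dependent breakdown of the protein, which arrays of RNA do not measure.

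Cebpa, the gene for C/EBPa, was read first as a check of the labels. On a log2 intensity scale it was 7.51 ± 0.68 (SD, n = 3) in control and 4.78 ± 0.35 (n = 3) in KO at day 7, and 7.72 ± 1.07 (n = 4) and 4.90 ± 0.30 (n = 4) at day 21. The groups did not overlap on either day, and the mean difference over both days was -2.78 (limma, adjusted p = 0.0426). Between 20.4% and 25.2% of an array's probe sets lay at the floor. The third control array of day 21 had the lowest 3' to 5' ratio of the control transcripts, -0.40 on the log2 scale against a highest value of 0.52. That array had the lowest mean correlation with the rest of its group among the 4 control arrays of day 21, and the first control array of day 7 the lowest among the 3 of that day. The gate genes Kit and Slamf1, and Procr, an HSC marker outside the gate, were above the floor on all arrays. Itgam, the Mac-1 gene, was at the floor on all 7 adult control arrays. Cd48, which the gate excludes, was well above the floor on the KO arrays of day 7 and on control replicate 3 of day 21. Its group mean in KO at day 21 was also well above the floor.

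Very few of these genes differed between groups by the test over all genes. In fetal liver, Slc16a3, the lactate exporter MCT4, rose and Hk2, the inducible hexokinase, fell against the 7 adult control arrays. No member passed in KO against control at day 7 or day 21. The members with the smallest p-values in the KO were Ldha, higher on both days by 0.76 and 0.43 on the log2 scale, and Pgk1, lower at day 21 by a log2 difference of -1.03. The heat map of all members by array shows this as single genes that stand out rather than a block.

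**Figure D1:**
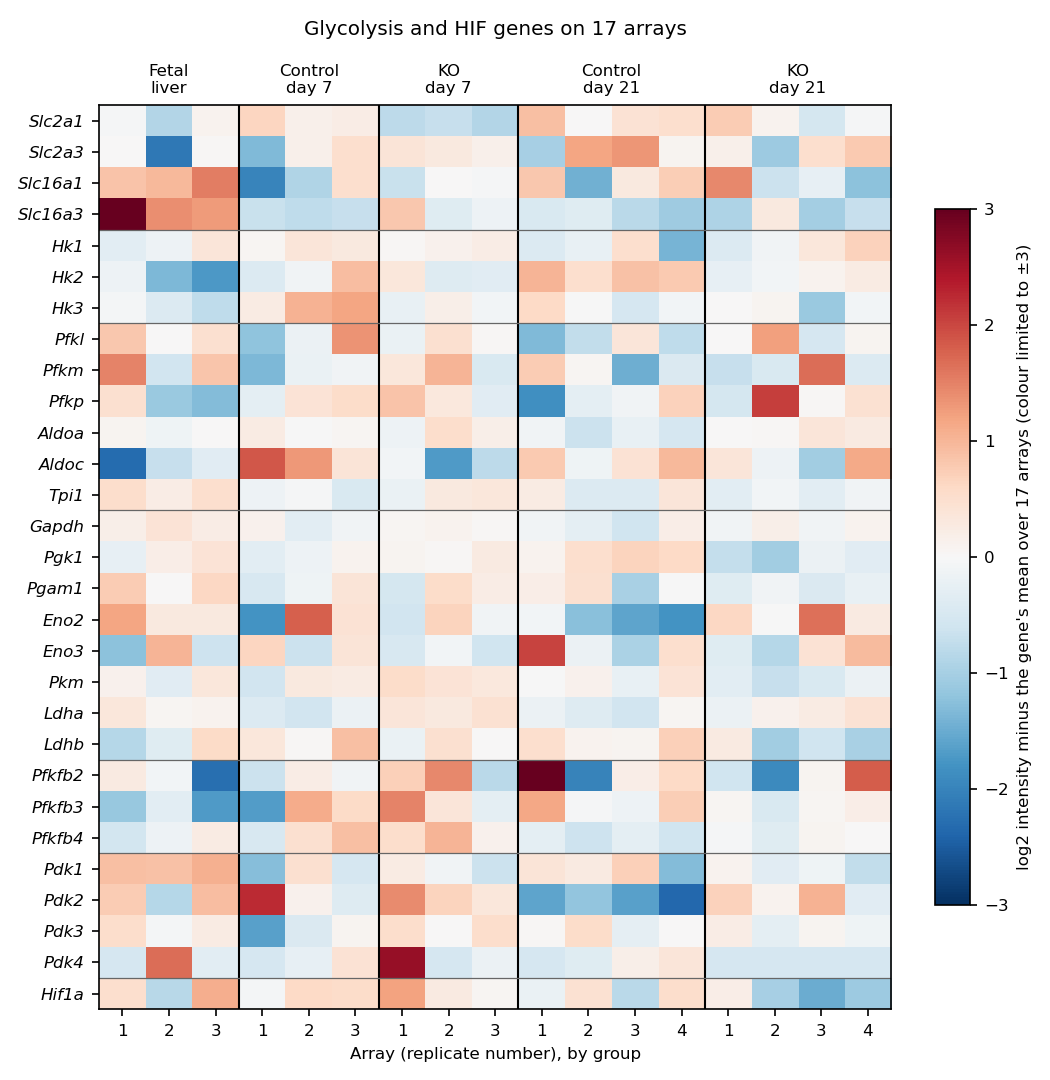
Log2 intensity of the 29 measured genes on 17 arrays, each gene minus its own mean, with columns grouped by sample group and horizontal lines between roles. Red is above and blue below the gene's mean, and colours end at 3 log2 units. Slc16a3 is red on the 3 fetal arrays, Pdk2 is blue on the 4 control arrays of day 21, and Pgk1 is blue on the 4 KO arrays of day 21.

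Promoter sequences are shown for these 4 genes because the results turn on them. Each runs over the 250 bases before the first listed transcription start, 5′ to 3′ on the gene's own strand, from RefSeq on GRCm38.p6. Capitals mark matches to ACGTG, the core of the hypoxia response element, or to its reverse complement CACGT. Slc16a3 lies at chr11:120948817-120949066 on the plus strand, Hk2 at chr6:82774455-82774704 on the minus strand, Pgk1 at chrX:106186850-106187099 on the plus strand and Ldha at chr7:46845554-46845803 on the plus strand.
Slc16a3: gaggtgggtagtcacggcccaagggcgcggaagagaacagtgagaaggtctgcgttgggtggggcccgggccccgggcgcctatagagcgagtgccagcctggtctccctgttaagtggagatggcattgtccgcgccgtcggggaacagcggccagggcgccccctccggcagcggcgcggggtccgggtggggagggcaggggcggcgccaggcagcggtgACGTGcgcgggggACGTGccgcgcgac
Hk2: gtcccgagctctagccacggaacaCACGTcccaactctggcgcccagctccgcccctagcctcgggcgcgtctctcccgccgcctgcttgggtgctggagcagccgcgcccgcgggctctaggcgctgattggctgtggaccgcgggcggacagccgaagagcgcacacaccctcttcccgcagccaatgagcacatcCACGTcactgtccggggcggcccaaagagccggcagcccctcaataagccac
Pgk1: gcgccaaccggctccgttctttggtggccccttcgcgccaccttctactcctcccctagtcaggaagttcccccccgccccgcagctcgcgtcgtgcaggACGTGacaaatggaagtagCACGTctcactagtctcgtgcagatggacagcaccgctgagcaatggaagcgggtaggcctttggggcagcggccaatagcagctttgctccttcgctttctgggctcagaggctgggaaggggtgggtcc
Ldha: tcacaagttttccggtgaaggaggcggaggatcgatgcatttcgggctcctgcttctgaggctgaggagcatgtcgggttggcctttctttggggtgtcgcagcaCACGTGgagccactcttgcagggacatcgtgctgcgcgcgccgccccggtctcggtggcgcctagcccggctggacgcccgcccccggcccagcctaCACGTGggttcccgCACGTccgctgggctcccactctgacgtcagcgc
Slc16a3, Hk2 and Pgk1 each held 2 matches to ACGTG. Ldha held 5, of which the E-box palindrome CACGTG, present at 2 places, gives a match on each strand. Over both strands, ACGTG was found in 14 of the 31 listed genes with a promoter sequence (45.2%), Gpi1, Eno1 and Pfkfb1 among the 31, and in 20.1% of 13362 tested genes with one. GCGTG, the other form of the core, was found in 48.4% of members and 40.5% of tested genes, and either form in 77.4% and 51.3%. CACGTG, which contains ACGTG, was found in 19.4% and 7.71%. TTGCGCAA, a palindromic C/EBP site, was in none of the 31 members and in 0.21% of tested genes. Median GC content of these windows was 59.2% for members and 58.4% for tested genes. A match is a run of letters in this window and says nothing on binding. Slc2a3 had no sequence in the table used.

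Between fetal liver HSCs and adult control HSCs, 1 member rose and 1 fell, where 1.88% of all genes tested rose and 1.77% fell (3.65% in all). With an unadjusted p under 0.05, 6 members were higher and 5 lower, where 10% of all genes were higher and 6.77% lower. On 4 members (Slc16a1, Slc16a3, Ldha and Pdk1) all 3 fetal arrays lay above all 7 control arrays, and on 1 (Aldoc) all lay below. For all genes these shares were 3.37% and 2.68%. The median member difference was 0.08 on the log2 scale, against 0.02 over all genes, with 17 members positive and 12 negative, where 52% of all genes were positive. In bulk RNA of sorted cells, fewer cells of a type and less RNA per cell cannot be told apart.

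Slc16a3 encodes MCT4, which exports lactate from strongly glycolytic cells. Its log2 intensity on the fetal arrays was 10.16, 7.36 and 7.24. On the control arrays it was 5.30, 5.19 and 5.27 at day 7 and 5.51, 5.60, 5.16 and 4.89 at day 21. Every fetal array was above every adult array, KO included, and fetal replicate 1 stood well above the other 2 fetal arrays. The fetal minus adult control difference was 2.98 ± 0.53 (SE) on the log2 scale (limma, adjusted p = 0.00585). Without fetal replicate 1 it was 2.03 (limma, adjusted p = 0.00469), and with only the fetal and control arrays in the fit the adjusted p was 0.0542. KO arrays read 6.76, 5.60 and 5.81 at day 7 and 5.04, 6.26, 4.94 and 5.27 at day 21. At day 7 the 3 KO arrays lay above the 3 control arrays, with a difference of 0.80 ± 0.62 (limma, adjusted p = 0.892; 0.45 without KO replicate 1), and at day 21 the groups overlapped.

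Slc16a1, the lactate and pyruvate transporter MCT1, read 8.94, 9.04 and 9.62 in fetal liver. The 7 adult control arrays ran from 6.09 to 8.90, so that the fetal arrays lay just above them. The difference was 1.47 ± 0.63 on the log2 scale (limma, adjusted p = 0.249). A second, dimmer probe set gave -0.45.

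Hk2, the hexokinase that HIF-1 and insulin induce, read 8.73, 7.54 and 7.17 in fetal liver. It read 8.48, 8.79 and 9.81 in control at day 7 and 9.90, 9.40, 9.78 and 9.67 in control at day 21. Fetal replicate 1 fell inside the control range, and the other 2 fetal arrays were below every adult array. The fetal minus control difference was -1.55 ± 0.33 on the log2 scale (limma, adjusted p = 0.0190). The adjusted p was 0.0927 without fetal replicate 2, 0.0976 without fetal replicate 3 and 0.123 with only the arrays compared in the fit. Hk3, the hexokinase of myeloid cells, differed by -0.83 ± 0.30 (limma, adjusted p = 0.160; -0.42 against control day 21 alone). Hk1, the constitutive hexokinase, differed by 0.03 ± 0.33 (limma, adjusted p = 0.986). A second Hk1 probe set read 9.68, 9.63 and 9.26 in fetal liver against 7.90 to 9.67 on the control arrays.

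Among the upper enzymes, Aldoc, the brain form of aldolase, had the largest fetal difference. It read 5.34, 6.95 and 7.32 in fetal liver against 9.52, 8.94 and 8.03 in control at day 7 and 8.43, 7.52, 8.09 and 8.63 at day 21. All fetal arrays lay below all control arrays, with a difference of -1.96 ± 0.54 on the log2 scale (limma, adjusted p = 0.0614). The call was made under 3 alternatives: with genes above the median probe set only (adjusted p = 0.0469), with the mean of all probe sets of a gene (-0.97, adjusted p = 0.0131) and with the 3' to 5' ratio as a covariate (-2.22, adjusted p = 0.0470). A second, dim Aldoc probe set gave 0.03. Aldoa, the widespread aldolase, differed by 0.12 ± 0.16, and Tpi1, which interconverts the triose phosphates, by 0.55 ± 0.19 (limma, adjusted p = 0.145). The phosphofructokinases Pfkl, Pfkm and Pfkp, the committed step of glycolysis, gave 0.75, 0.99 and -0.57 and none passed the test.

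Of the lower enzymes, Ldha, the muscle-type lactate dehydrogenase that favours lactate formation, read 11.43, 11.14 and 11.20 in fetal liver. Control arrays read 10.68, 10.53 and 10.92 at day 7 and 10.91, 10.71, 10.51 and 11.14 at day 21. The lowest fetal array and the highest control array both round to 11.14, so the fetal arrays lay above by a very small margin. The difference was 0.50 ± 0.16 on the log2 scale (limma, adjusted p = 0.111). Gapdh, which makes the first NADH of the pathway, was read here only by the array's own control probe sets and differed by 0.41 ± 0.15 (adjusted p = 0.177). Pkm read 10.83, 10.36 and 11.05 in fetal liver, within the control range of 10.12 to 11.10. Pgk1, Pgam1, Eno2, Eno3, Pkm and Ldhb gave fetal differences from -0.61 (Ldhb) to 1.10 (Eno2), and none passed the test.

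The pyruvate dehydrogenase kinases were all positive in fetal liver and none passed the test. Pdk1, the kinase most often named as a HIF-1 target, read 9.29, 9.25 and 9.44 in fetal liver. It read 7.09, 8.87 and 7.88 in control at day 7 and 8.77, 8.64, 9.10 and 7.08 at day 21. The 3 fetal arrays were close together and above all controls, which spread widely, and the difference was 1.15 ± 0.42 on the log2 scale (limma, adjusted p = 0.160). Its other 3 probe sets gave 0.35, 0.97 and 2.22. Pdk2 read 7.84, 6.21 and 7.99 in fetal liver and differed by 0.79 ± 0.55. Pdk3 read 8.79, 8.22 and 8.50 against 6.64 to 8.82 on the control arrays, with overlap, and differed by 0.52 ± 0.30. Pdk4, which fasting and fatty acids induce, was above the floor on 9 of the 17 arrays. It read 6.18 and 4.21 on fetal replicates 2 and 3 and lay at the floor of 4 on fetal replicate 1, a difference of 0.38 ± 0.59 from control. Its control arrays read 4, 4.26 and 4.94 at day 7 and 4, 4.15, 4.68 and 4.88 at day 21.

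The PFKFB enzymes set the level of fructose 2,6-bisphosphate, the main activator of phosphofructokinase. Pfkfb3, a HIF-inducible form, differed by -1.27 ± 0.55 in fetal liver (limma, adjusted p = 0.258). With control replicate 1 of day 7 and control replicate 3 of day 21 left out, a setting added after the data were seen, the difference was -1.78 (adjusted p = 0.0434). Pfkfb2 and Pfkfb4 differed by -0.83 and -0.07.

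Glucose uptake and Hif1a did not pass in the fetal comparison. Slc2a1, the main HIF-responsive glucose transporter GLUT1, read 10.30, 9.46 and 10.45 in fetal liver. Its control arrays read 10.98, 10.48 and 10.55 at day 7 and 11.25, 10.34, 10.78 and 10.83 at day 21. The groups overlapped, the difference was -0.67 ± 0.28 (limma, adjusted p = 0.236; -0.36 without fetal replicate 2), and the other 2 Slc2a1 probe sets gave 0.18 and -0.20. Slc2a3, the high-affinity transporter GLUT3, differed by -0.78 ± 0.62. Hif1a read 9.04, 7.72 and 9.63 in fetal liver, 1 array within and the others on either side of the control range of 7.73 to 9.13. It differed by 0.08 ± 0.45. The other Hif1a probe sets each had a lower mean in fetal liver than in either control group, with overlap. They read 8.62, 7.96 and 8.55 against 8.10 to 9.41, 6.28, 6.51 and 5.99 against 5.90 to 8.83, and 4.21, 4 and 6.56 against 4 to 7.95.

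**Figure D2:**
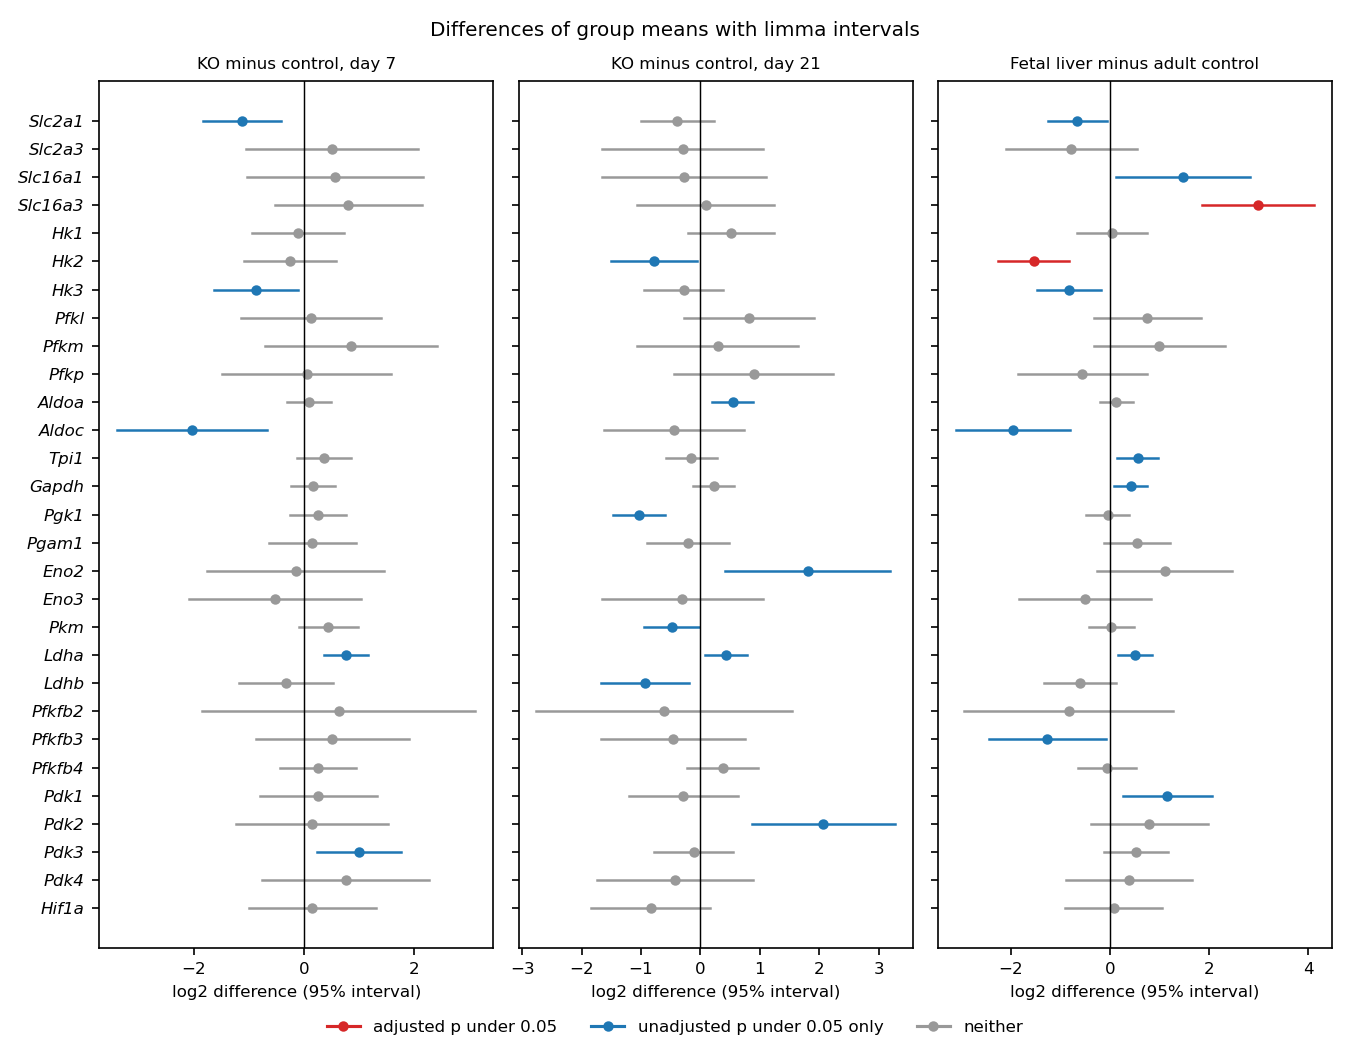
Difference of group means on the log2 scale with its 95% interval from limma for every measured gene, in KO against control at day 7 and day 21 and in fetal liver against adult control. Red marks an adjusted p under 0.05, blue an unadjusted p under 0.05 only and grey neither. Only Slc16a3 (2.98) and Hk2 (-1.55) in fetal liver are red.

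Hif3a, Hmox1 and Pklr, genes of the pathway outside the set, had larger fetal differences than any member. In the list of 11 HIF pathway genes, 1 rose and 1 fell, where 1.88% and 1.77% of all genes did, and the median difference was 0.43. Hif3a, whose product is best known as a dominant-negative brake on HIF-1, read 11.08, 10.94 and 10.42 in fetal liver against 6.26 to 7.74 on the 7 control arrays. It rose by 4.03 ± 0.39 on the log2 scale (limma, adjusted p = 4.1e-05). Meis1, a stem cell factor reported to raise Hif1a in mouse HSCs, fell by 1.19 on the log2 scale (adjusted p = 0.0241), from 9.40 to 10.65 on the control arrays to 8.61, 8.83 and 8.84. Egln3, an oxygen-sensing prolyl hydroxylase, and Epas1, which encodes HIF-2α, differed by 2.20 ± 0.57 (adjusted p = 0.0506) and 1.99 ± 0.61 (adjusted p = 0.0919).

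Of 19 measured HIF targets outside glycolysis, 3 rose and 1 fell in fetal liver, where 1.88% and 1.77% of all genes did, with a median of 0.15 against 0.02 over all genes. Hmox1, which breaks down heme, rose by 3.86 ± 0.54 on the log2 scale (limma, adjusted p = 0.00104). Ero1a, an oxidase of the endoplasmic reticulum, rose by 2.74 ± 0.65 (adjusted p = 0.0337), and Tfrc, the transferrin receptor, rose by 1.79 ± 0.41 (adjusted p = 0.0297). Ndrg1, a stress-induced gene, fell by 2.67 on the log2 scale (adjusted p = 0.00805). Hmox1 and Tfrc are also strongly expressed in macrophages and red cell precursors. Targets thus moved in both directions, and Vegfa, the classical HIF target, gave -1.63 ± 0.49 (adjusted p = 0.0913).

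Of 8 measured tissue isozymes, Pklr, the pyruvate kinase of liver and red cells, rose. It read 12.78, 12.22 and 11.74 in fetal liver against 6.03 to 9.05 on the control arrays, a difference of 5.04 ± 0.78 (limma, adjusted p = 0.00216). Pkm, the counterpart of Pklr among the members, differed by 0.02 ± 0.21. Bpgm gave the smallest p among the isozymes that were lower, at -0.80 ± 0.58. No gene passed in pyruvate entry (9 genes), the pentose phosphate pathway (6), gluconeogenesis and glycogen (11) or the negative regulators (5). Their smallest p-values belonged to Pdp1 (-1.66) and Pdhb (0.58), Tkt (0.36) and Pgd (-0.44), Pygb (0.98) and Fbp2 (-0.22), and Prkaa1 (0.98) and Prkaa2 (-0.95).

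**Figure D3:**
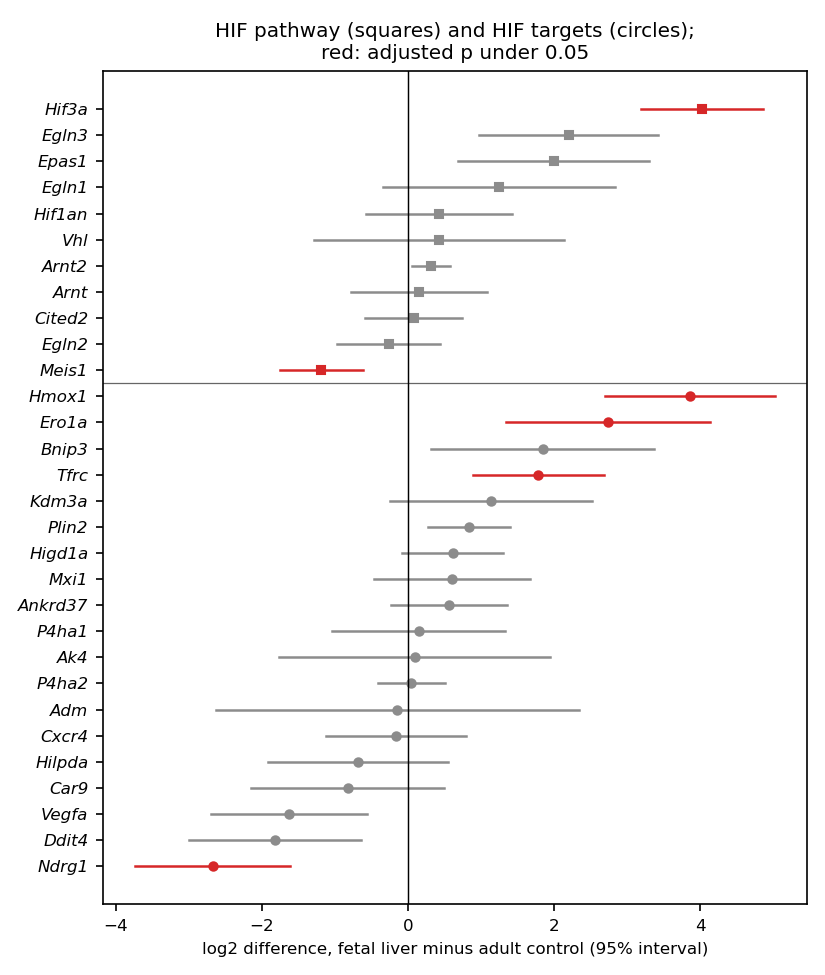
Fetal liver minus adult control on the log2 scale with the 95% interval from limma, for 11 HIF pathway genes (squares) and 19 HIF targets outside glycolysis (circles). Genes in red had an adjusted p under 0.05, namely Hif3a, Hmox1, Ero1a and Tfrc above 0 and Meis1 and Ndrg1 below 0.

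Some lists of markers of other cells were higher in the fetal group. The megakaryocyte and lymphoid lists overlapped between fetal and control arrays, and none of their genes passed the test. Over all genes tested, 1.88% rose in this comparison. The mean log2 level of the neutrophil and monocyte list was 10.76, 8.65 and 8.76 on the fetal arrays and 6.10 to 8.31 on the control arrays, with 1 of 9 genes rising. Fetal replicate 1 was highest for this list and for Slc16a3. The erythroid list stood at 9.60, 9.45 and 8.98 against 5.87 to 7.47, with 4 of 7 genes rising. The hepatocyte list stood at 6.11, 9.28 and 8.60 against 5.49 to 6.51, with 3 of 9 genes rising, and the endothelial list at 7.19, 9.81 and 10.39 against 5.78 to 6.40, with 5 of 6 rising. For hepatocyte and endothelial genes fetal replicate 1 was the lowest fetal array, where Hk2 was highest. The macrophage list stood at 6.90 to 7.04 against 4.52 to 5.16, with 2 of 6 rising, and the cycling list at 9.21 to 9.64 against 7.17 to 7.96, with 5 of 9 rising. The part of these cells and of cycling in the fetal results was not tested.

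At day 7, C/EBPa KO and control HSCs were compared with 3 arrays each. None of the 29 members passed the test, nor did any other gene (0%). Unadjusted p was under 0.05 for 2 members that were higher and 3 that were lower, where 3.74% and 2.98% of all genes were (6.72% in all). All 3 KO arrays lay above all 3 control arrays for 3 members (Slc16a3, Pkm and Ldha) and below them for 3 (Slc2a1, Hk3 and Aldoc), where 7.48% and 6.39% of all genes did so. The median member difference was 0.16 on the log2 scale with 21 members positive, against 0 over all genes with 50.1% positive. Without control replicate 1 of day 7, the median was -0.0511.

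Ldha read 11.46, 11.38 and 11.56 in KO at day 7, above the 3 control arrays of that day (10.53 to 10.92). The difference was 0.76 ± 0.19 on the log2 scale (limma, adjusted p = 0.390). Pkm, the pyruvate kinase of proliferating and most adult cells, read 11.25, 11.10 and 11.01 in KO against 10.12, 10.99 and 10.94 in control. The KO arrays were above by a small margin except for control replicate 1, which was low, and the difference was 0.44 ± 0.25 (adjusted p = 0.831), or 0.16 without that array.

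Slc2a1 read 9.54, 9.65 and 9.45 in KO at day 7 against 10.98, 10.48 and 10.55 in control. The KO arrays were close together and well below control, and the difference was -1.12 ± 0.33 on the log2 scale (limma, adjusted p = 0.491). The other 2 Slc2a1 probe sets gave -0.45 and -0.60. Aldoc read 7.58, 5.95 and 6.86 in KO, below the 8.03 to 9.52 of control, a difference of -2.04 ± 0.63 (adjusted p = 0.513), while its dim second probe set gave 1.00. With the mean of all probe sets of a gene, the differences were -0.73 for Slc2a1 and -0.52 for Aldoc. Hk3 read 7.41, 7.80 and 7.55 against 7.87, 8.67 and 8.81, a difference of -0.86 ± 0.35 (adjusted p = 0.685).

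By the probe set that stood for each gene, the pyruvate dehydrogenase kinases were all positive at day 7. Pdk3 read 8.78, 8.28 and 8.79 in KO against 6.64, 7.84 and 8.35 in control, so the groups overlapped, and the difference was 1.01 ± 0.35 (limma, adjusted p = 0.615), or 0.52 without control replicate 1. Pdk1 read 8.62, 8.27 and 7.74 and differed by 0.26 ± 0.49. A second Pdk1 probe set read 7.24, 7.58 and 7.54 in KO, below the 8.79, 8.76 and 8.29 of control. The remaining Pdk1 probe sets overlapped. Pdk2 read 8.49, 7.75 and 7.41 in KO and 9.32, 7.21 and 6.68 in control, and differed by 0.15 ± 0.64. Pdk4 was high on 1 KO array of day 7 (7.13) and at or near the floor on the other 2 (4 and 4.33). Hk2 read 9.23, 8.51 and 8.56 in KO and Hif1a 9.75, 8.80 and 8.61 against 8.49, 9.13 and 9.08 in control, both genes overlapping control, with differences of -0.26 ± 0.39 and 0.15 ± 0.54. The other 3 Hif1a probe sets gave -0.87, -0.70 and -0.80. On the first of these KO read 8.57, 7.64 and 8.13, below the 8.60, 9.41 and 8.94 of control. On the second KO read 6.51, 5.85 and 6.48, below the 6.64, 6.85 and 7.46 of control. On the third the groups overlapped.

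**Figure D4:**
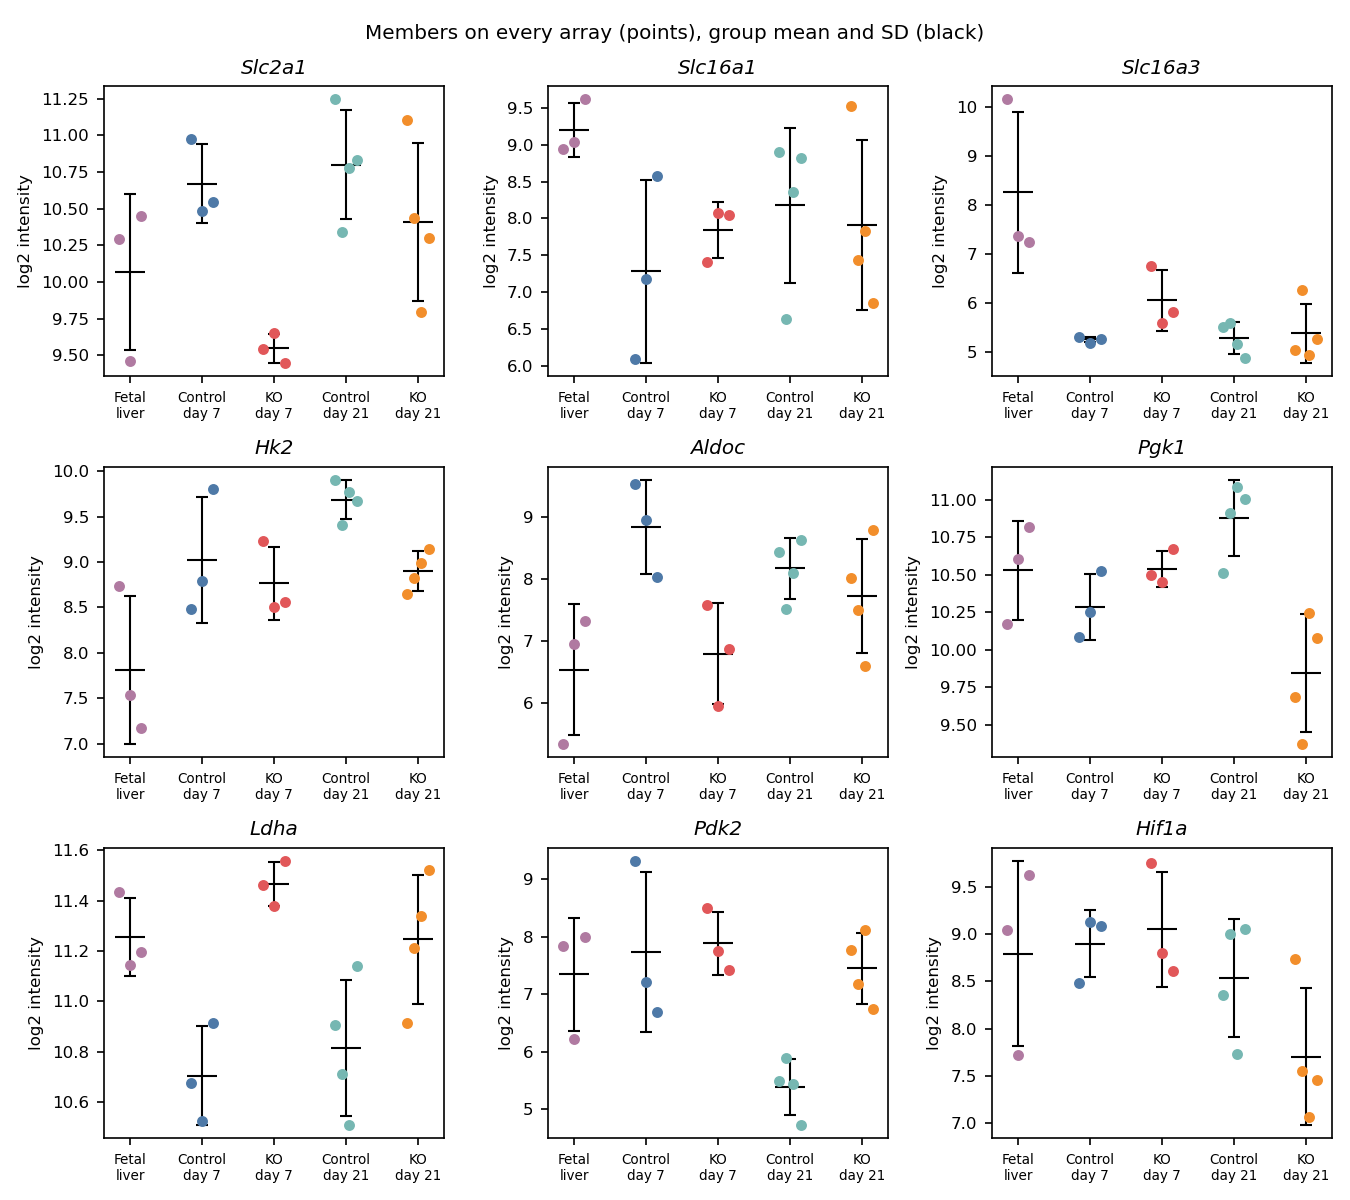
Log2 intensity of 9 members on every array (points), with the group mean and SD in black, for the 5 groups. Each panel has its own axis, which does not start at 0. Slc16a3 is highest on the 3 fetal arrays, Slc2a1 is lowest in KO at day 7, Pgk1 lowest in KO at day 21 and Pdk2 lowest in control at day 21.

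At day 21, KO and control HSCs were compared with 4 arrays each. None of the 29 members passed the test, where 0.0179% of all genes did (3 genes). Unadjusted p was under 0.05 for 4 members that were higher and 4 that were lower, where 6.12% and 3.95% of all genes were (10.1% in all). All 4 KO arrays lay above all 4 control arrays for 3 members (Eno2, Aldoa and Pdk2) and below them for 2 (Hk2 and Pgk1), where 3.14% and 2.35% of all genes did so. The median member difference was -0.27 on the log2 scale with 11 members positive and 18 negative, against 0.0022 over all genes with 50.3% positive. Without control replicate 1 of day 21, it was -0.0501.

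Pgk1, which makes the first ATP of the pathway, had the smallest p of the members. It read 9.68, 9.37, 10.24 and 10.08 in KO and 10.51, 10.91, 11.08 and 11.001 in control. Every KO array lay below every control array, and the difference was -1.03 ± 0.21 on the log2 scale (limma, adjusted p = 0.0947). The other 2 Pgk1 probe sets gave -1.06 and -1.11, each with an adjusted p of 0.030 in a fit over all probe sets, where the first had 0.118. The member passed with arrays centred on their medians (-1.23, adjusted p = 0.0453) and with the mean of all probe sets of a gene (-1.07, adjusted p = 0.00549). At day 7 the KO read 10.49, 10.45 and 10.67 and control 10.08, 10.25 and 10.52, a difference of 0.25 ± 0.24. The other 2 Pgk1 probe sets had a lower mean in KO than in control at day 7, with overlap. They read 9.32, 9.05 and 9.37 against 9.45, 9.88 and 9.30, and 8.37, 8.32 and 8.73 against 8.67, 9.10 and 8.64.

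Ldha at day 21 read 10.91, 11.21, 11.34 and 11.52 in KO against 10.91, 10.71, 10.51 and 11.14 in control. The groups overlapped through KO replicate 1 and control replicate 4, and the difference was 0.43 ± 0.16 on the log2 scale (limma, adjusted p = 0.386), or 0.23 with arrays centred on their medians. Ldhb, the heart-type subunit that favours pyruvate formation, read 9.67, 8.36, 8.82 and 8.43 in KO and 9.90, 9.52, 9.48 and 10.11 in control. Its KO arrays were lower except replicate 1, and the difference was -0.93 ± 0.34 (adjusted p = 0.375). The other 3 Ldhb probe sets gave -1.04, -1.30 and -1.13. On the first of these the highest KO array read 9.27 and the lowest control array 9.41. On the second they read 8.61 and 8.79, so neither overlapped, and on the third the groups overlapped. Pkm read 10.37, 10.001, 10.24 and 10.53 in KO and 10.69, 10.82, 10.48 and 11.10 in control, a difference of -0.49 ± 0.22 (adjusted p = 0.481). Eno2, the neuronal enolase, read 6.40, 5.78, 7.43 and 6.06 in KO against 5.71, 4.52, 4.20 and the floor of 4 in control, a difference of 1.81 ± 0.65 (adjusted p = 0.357).

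Aldoa read 10.90, 10.93, 11.26 and 11.17 in KO at day 21 and 10.78, 10.26, 10.66 and 10.38 in control. The groups did not overlap, and the difference was 0.55 ± 0.16 on the log2 scale (limma, adjusted p = 0.268), or 0.35 with arrays centred on their medians. Its other 4 probe sets gave -0.03, 0.70, 0.54 and 0.09. Hk2 read 8.64, 8.82, 8.99 and 9.15 in KO, all below the 9.40 to 9.90 of control, and differed by -0.79 ± 0.34 (adjusted p = 0.464), or by -0.45 with the 3' to 5' ratio as a covariate.

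Pdk2, a kinase expressed in most tissues, read 7.77, 7.17, 8.12 and 6.74 in KO at day 21. The control arrays of that day read 5.49, 5.88, 5.44 and 4.72, below every other array of the study. The KO minus control difference was 2.07 ± 0.56 on the log2 scale (limma, adjusted p = 0.244). Pdk1 read 8.48, 8.05, 8.26 and 7.65 in KO and Pdk3 8.49, 7.97, 8.35 and 8.13 against 8.31, 8.82, 7.99 and 8.28, both genes overlapping control. Their differences were -0.29 ± 0.43 and -0.12 ± 0.31. Pdk4 was at the floor on all 4 KO arrays of day 21 and at most 4.88 in control. Hif1a read 8.74, 7.55, 7.06 and 7.46 in KO and 8.35, 9.01, 7.73 and 9.06 in control. The groups overlapped through KO replicate 1, and the difference was -0.83 ± 0.46 (adjusted p = 0.591). Its other 3 probe sets gave -0.96, -0.47 and 1.5. On the first of these KO read 7.21, 7.76, 7.69 and 7.47, below the 8.16, 8.10, 8.69 and 9.004 of control. On the others the groups overlapped. Slc2a1 read 11.11, 10.44, 9.80 and 10.30 in KO and differed by -0.39 ± 0.28 (adjusted p = 0.679).

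Averaged over both days, no member passed, where 0.0596% of all genes rose and 0.0119% fell (0.0715% in all). Unadjusted p was under 0.05 for 3 members that were higher and 5 that were lower, where 7.01% and 4.67% of all genes were, and 18 members were positive, where 50.9% of all genes were. Ldha had the smallest p among members, with a mean difference of 0.60 ± 0.12 on the log2 scale (limma, adjusted p = 0.0973; 0.0729 to 0.239 over 24 alternatives). Slc2a1 followed with -0.76 ± 0.22 (adjusted p = 0.206) and Aldoc with -1.24 ± 0.42 (adjusted p = 0.282). With the mean of all probe sets of a gene these were -0.46 and -0.15. Pgk1 gave -0.39 ± 0.16 (adjusted p = 0.359) and passed only with the mean of all probe sets of a gene (-0.59, adjusted p = 0.0264). By the probe set that stood for it, no member kept its groups apart in the same direction on both days. A dimmer Pfkp probe set and a dimmer Hif1a probe set did, each with KO below control on both days. The difference of the KO effects, day 21 minus day 7, passed for none of the members and none of all genes (0%), with 1 member higher and 3 lower at an unadjusted p under 0.05, where 2.63% and 1.88% of all genes were. The members concerned were Pdk2 (1.92 ± 0.85), Pgk1 (-1.29 ± 0.32), Pkm (-0.93 ± 0.33) and Pdk3 (-1.12 ± 0.47). Without control replicate 1 of day 7, Pdk2 gave 1.13 and Pdk3 -0.64. Both KO comparisons and the comparison of fetal liver share control arrays, so likeness between their values is not independent.

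Within an array, the log2 difference between 2 isozymes does not change when all values of the array are multiplied by a common factor. Other scalings, such as quantile normalization, can change it. The zero of such a difference has no meaning between probe sets, and only its change between arrays is read. This comparison was chosen after the values were seen, and it is a description with no test. Ldha minus Ldhb ran from 0.60 to 1.19 on the 7 control arrays, from 1.25 to 3.09 on the 7 KO arrays and from 1.22 to 2.89 on the 3 fetal arrays. All controls of both days therefore lay below all KO and all fetal arrays. With each of the other 3 Ldhb probe sets, the controls ran from 0.80 to 1.5, 0.17 to 1.93 and 1.05 to 1.57, and the KO arrays from 1.28 to 3.67, 1.43 to 3.91 and 1.73 to 3.84. The separation of control from KO was thus present with 2 of the 4 Ldhb probe sets, and with the others the ranges overlapped. Aldoa minus Aldoc ran from 1.61 to 2.92 in control, 2.39 to 5.47 in KO and 3.58 to 5.63 in fetal liver. Hk1 minus Hk2, Slc16a3 minus Slc16a1 and Slc2a3 minus Slc2a1 also overlapped between control and KO.

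**Figure D5:**
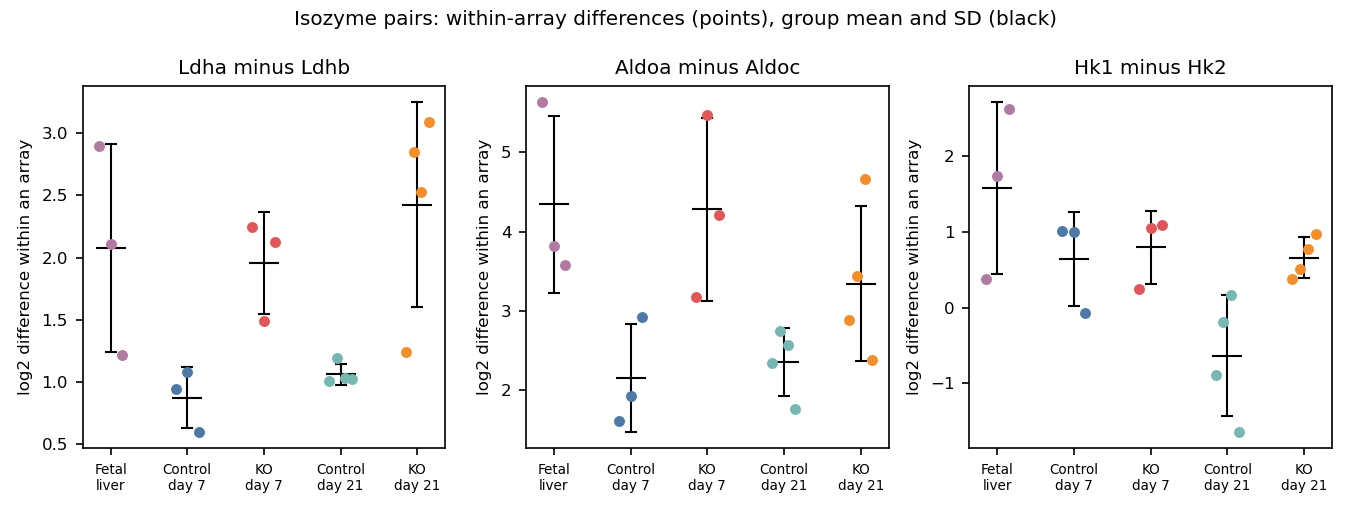
Within-array log2 difference of 3 isozyme pairs on every array (points), with the group mean and SD in black. Ldha minus Ldhb is at most 1.19 on the control arrays and at least 1.22 on the KO and fetal arrays, while the other pairs overlap between control and KO.

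No gene of the other pathway lists passed in KO against control on either day. At day 7 the HIF targets with the smallest p were Plin2, a lipid droplet protein (1.28 ± 0.31; limma, adjusted p = 0.378), and Adm, adrenomedullin (-4.34 ± 1.36, adjusted p = 0.517). Adm read 7.77, 5.51 and 5.08 in KO at day 7 against 10.88, 9.56 and 10.94 in control, without overlap, but 5.75 to 9.41 in control at day 21. Vegfa read 8.13, 7.67 and 8.10 in KO at day 7 against 9.03, 10.17 and 9.73 in control, also without overlap. In the HIF pathway, Cited2 gave 0.61 and Hif3a -0.56. In the remaining lists the smallest p in each direction belonged to Pdp2 (1.33) and Pdp1 (-1.40), Tkt (0.45) and Pgd (-0.21), Pklr (2.24) and Ldhc (-0.73), Fbp1 (2.22) and Gys1 (-0.94), and Txnip (0.79) and Prkaa2 (-0.62).

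At day 21 the HIF target with the smallest p was Higd1a, a mitochondrial protein, at 9.62, 10.84, 10.08 and 9.44 in KO and 9.12, 8.74, 8.42 and 8.67 in control. The groups did not overlap, and the difference was 1.26 ± 0.33 on the log2 scale (limma, adjusted p = 0.233). Ak4 had the smallest p among lower targets (-1.14 ± 0.88). Of the 19 targets, 16 were positive with a median of 0.43, against 0.0022 over all genes, and 5 had an unadjusted p under 0.05, where 6.12% of all genes were higher at that level. Elsewhere the smallest p in each direction belonged to Arnt2 (0.29) and Meis1 (-0.45), Pdp2 (1.05) and Pdhx (-0.19), Taldo1 (0.77) and Pgd (-0.29), Pklr (1.75) and Bpgm (-0.59), Pck2 (1.37) and Fbp1 (-1.44), and Prkaa1 (1.27) and Prkaa2 (-0.66).

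Cycling and lineage markers stood beside these KO values. The mean log2 level of the cycling list was 8.70 to 9.30 in KO and 7.17 to 7.80 in control at day 7, and 7.92 to 9.19 and 7.43 to 7.96 at day 21. The erythroid list stood at 6.82 to 8.51 in KO and 5.87 to 6.59 in control at day 7, and at 6.58 to 8.88 and 6.19 to 7.47 at day 21, with overlap. The megakaryocyte list stood at 7.13 to 8.47 in KO and 6.38 to 7.14 in control at day 7, with overlap, and at 8.36 to 9.32 and 7.00 to 7.97 at day 21. The neutrophil and monocyte list stood at 6.44 to 7.17 in KO and 6.63 to 8.07 in control at day 7 and at 5.76 to 6.48 and 6.10 to 8.31 at day 21, overlapping on both days. None of the genes of these lists passed the test in either comparison. Cd48, which the gate excludes, read 5.93 to 8.14 in KO at day 7 and 4 to 4.23 in control, and at day 21 was highest on control replicate 3 (9.36). Its mean was higher in KO than in control on both days. The difference was 2.78 ± 1.04 on the log2 scale at day 7 (limma, adjusted p = 0.645). The difference of KO effects, day 21 minus day 7, was -1.84 ± 1.38. The part of these markers in the member values was not tested.

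Control HSCs of day 21 were set against those of day 7 to see how members differed without the KO. No member passed, where 0.0298% of all genes did. No member lay above on all day 21 arrays (2.75% of all genes) and 2 lay below, Pdk2 and Aldoa (3.38% of all genes). Pdk2 differed by -2.36 ± 0.60 on the log2 scale (limma, adjusted p = 0.374) and Aldoa by -0.47 ± 0.17 (adjusted p = 0.525). For both, the day 21 KO arrays also lay above the day 21 control arrays. Without control replicate 1 of day 7, the Pdk2 difference was -1.56. Aldoa gave -0.30 with arrays centred on their medians and -0.16 with the mean of all probe sets of a gene. Pgk1 differed by 0.59 ± 0.22. Pdk3 differed by 0.74 ± 0.33, which became 0.26 without control replicate 1 of day 7 and 1.11 without control replicate 3 of that day. The median over members was 0.03. Unadjusted p was under 0.05 for 2 members that were higher and 4 that were lower at day 21, where 3.28% and 4.77% of all genes were, and 16 members were positive, where 48.2% of all genes were.

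By the probe set that stood for each gene, the remaining members showed no difference between KO and control beyond an unadjusted p of 0.05. Slc2a3 and Slc16a1 differed by 0.51 and 0.56 at day 7 and by -0.30 and -0.27 at day 21. Hk1 differed by -0.11 and 0.51, and its level ran from 8.03 to 10.13 over all arrays. A second, slightly dimmer Hk1 probe set read 9.30, 9.97 and 9.51 in KO at day 7. This was above the 7.90, 8.46 and 9.04 of control, and at day 21 the groups overlapped on it. Pfkl, Pfkm and Pfkp ran from 0.05 to 0.85 at day 7 and from 0.30 to 0.89 at day 21. Their standard errors were 0.51 to 0.73. A second, dimmer Pfkp probe set went the other way. At day 7 it read 6.30, 7.30 and 6.25 in KO, below the 9.10, 8.28 and 7.58 of control. At day 21 it read 7.18, 5.97, 7.25 and 6.89 in KO, below the 8.94, 8.88, 7.90 and 9.02 of control. The dimmest Pfkp probe set overlapped on both days. Tpi1, Gapdh and Pgam1, 3 abundant enzymes, differed by 0.36, 0.16 and 0.15 at day 7 and by -0.15, 0.22 and -0.21 at day 21. Eno3, the muscle enolase, differed by -0.52 and -0.30. Pfkfb2, Pfkfb3 and Pfkfb4 differed by 0.63, 0.52 and 0.26 at day 7 and by -0.61, -0.46 and 0.37 at day 21, and Pfkfb2 spread most, from 5.21 to 10.51 over all arrays. For these genes the intervals are wide, and a p above the threshold does not show that levels were alike.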

How the data were processed

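Per the labels, total RNA of sorted HSCs was amplified by a Nugen whole-transcriptome kit and labelled with biotin. The authors deposited 1 linear intensity for each of 45101 probe sets on each of 17 arrays. RMA is the only tool named, per the submitters' processing notes, with no role or version; later steps are not stated. Every array had a lowest deposited intensity of 16, and medians ran from 39.4 to 53.1, so arrays did not share 1 distribution. The scaling and any centring between arrays are unknown. The log2 of each value was taken with nothing added, which places the floor at 4. A gene that a group shows only at the floor has an upper bound there.

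Of 35890 annotated probe sets, 34958 named 1 gene and 932 several. Of the former, 34754 matched RefSeq GRCm38.p6, used for names only. This gave 18194 genes; 1409 at the floor on all arrays were left out, and 16785 were tested. No per-sample column was left unused (0), and no 2 arrays were identical (highest correlation 0.952).

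One limma 3.58.1 model in R 4.3.3 with 5 group means was fitted to all genes and arrays (12 residual degrees of freedom), with Benjamini-Hochberg adjusted p under 0.05 as the call. The 6 comparisons set KO against control at each day and averaged over days, the difference between days, fetal liver against the mean of the 2 control groups, and the controls between days. The fit was tested on simulated data. Values on every array are given for members called, for the 2 largest differences each way among members whose groups do not overlap (1 each for the controls and the difference of KO effects), and for Hif1a, Slc2a1, Hk2, Pkm, Ldha and Pdk1 to Pdk4. From each other list, called genes are named, or the gene of smallest p each way, for the KO at each day and for fetal liver. The gene set and lists were chosen with earlier results of these data known. The list name Ero1l was read as its current symbol Ero1a. Alternatives were other scalings, an added 16, a filter on dim genes, all probe sets, fewer arrays, the 3' to 5' ratio, a replicate block and leaving out each array. Arrays give no count depth, and their number limits the precision.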

Additional observations from a re-analysis of the deposited data

Results flagged for a closer look

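Across 57 groups of 4 values (29 members in each day 21 group, where values varied), 2 arrays stood apart from the other 3 of their group by more than Dixon's 95% critical value for 4 samples, and chance gives about 1 in 20. Both were KO replicate 3 of day 21. For Hk3 this array read 6.52 on the log2 scale, and the other 3 read 7.56 to 7.71. For Pfkm it read 9.89, and the other 3 read 7.52 to 7.81. Neither gene passed the test at day 21.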

How the results depend on the processing

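No value that passed its test changed sign under any setting. In fetal liver against adult control, 0 members were called with only the arrays compared and 1 against control day 7 alone, and 1 to 2 with each array left out. The median member difference was 0.34 with the mean of all probe sets and 0.30 against control day 21 alone. Members called at day 21 were 1 with arrays centred on their medians and 1 with the mean of all probe sets, and averaged over days 1 with the mean of all probe sets; in each case this was Pgk1. With each array left out, the median member difference ran from -0.0511 to 0.36 at day 7, from -0.23 to -0.0501 at day 21 and from -0.11 to 0.19 averaged over days. At day 7 it was -0.0511 with control replicate 1 of day 7 and control replicate 3 of day 21 left out. For the difference of KO effects it was -0.23 with the mean of all probe sets, -0.28 with the 3' to 5' ratio as a covariate, -0.23 without both of those control arrays, and -0.52 to -0.15 with each array left out. The settings without those 2 control arrays and against 1 control day were chosen after seeing the data. The cause of these shifts was not tested, beyond the different arrays or probe sets that each setting holds. Centring arrays on their medians moved the median of all genes to -0.13 at day 7, -0.20 at day 21 and -0.16 averaged, where the member median became 0.04, -0.47 and -0.0554, and to 0.16 between controls, where it became 0.20; the fetal member median became -0.0108. That centring called 3 genes higher and 5 lower at day 21 (3 and 0 without it), 7 and 8 averaged (10 and 2), and 1 and 3 between controls (0 and 5), and quantile normalization 0 and 1 averaged. Over all genes, calls varied with the setting from 0 to 6 at day 7, 0 to 43 at day 21, 0 to 29 averaged, 1 to 11 between controls and 0 to 4 for the difference of KO effects, and in fetal liver from 234, with only the arrays compared, to 880, against 613 with all arrays.

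Same-numbered arrays of different groups had correlations of deviations from -0.04 to 0.08. No such values were computed for differently numbered arrays, so these do not decide whether replicate numbers pair samples. With the replicate block, Slc16a3 was 2.94 (limma, adjusted p = 0.0118) and Hk2 -1.53 (adjusted p = 0.0441) in fetal liver, no member call changed, and 524 genes were called in that comparison. Low-intensity members such as Pdk4 and Eno2 are limited by the floor.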
